A study of Mus musculus with 2 samples.

Results

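The level, co-expression and isoforms of 10 immediate-early genes were examined in mouse muscle stem cells (MuSCs), the resident cells that rebuild muscle fibres after injury. The members were Fos, Fosb, Jun, Junb, Jund, Egr1, Ier2, Atf3, Klf4 and Btg2, matched by the mouse symbol of their Ensembl identifiers. All 10 were found among the 20830 genes listed for the 10% aliquot and the 26997 listed for the 90% aliquot. The mice carried Pax7creERT2 and R26-eYFPfl/fl on a C57BL6 background, so that tamoxifen, given from 3 months of age, marked cells expressing Pax7 and their descendants with YFP, and the cells were sorted on YFP. Quiescent MuSCs came from uninjured hindlimb muscle, and activated MuSCs from muscle collected 72 h after an injection of 1.2% barium chloride. Both populations share these alleles, the tamoxifen, the dissociation and the sort. They were run together in 1 10x 3′ capture (v2), whose droplets were then divided into a 10% aliquot, sequenced with Illumina and nanopore, and a 90% aliquot, sequenced with Illumina alone. The number of animals is not stated, and no barcode carries a label of its origin.

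Immediate-early genes are transcribed within minutes of a stimulus and need no new protein synthesis for it. Fos and Fosb form dimers with Jun, Junb or Jund, and these dimers are the transcription factor AP-1. Egr1 and Klf4 are zinc finger transcription factors, Atf3 is a stress-induced bZIP factor, Ier2 is a nuclear protein and Btg2 is an antiproliferative cofactor of mRNA deadenylation. Enzymatic dissociation of muscle is known to raise several of these genes in MuSCs, and its part in the values given here was not tested.

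Since origin was not labelled, barcodes were compared by depth and cycling genes. Small barcodes held 3000 to 15000 short-read UMIs and 0 UMIs of Rrm2, Top2a and Cdk1, while large barcodes held at least 20000 UMIs. The 10% aliquot gave 157 small barcodes (median 6729 UMIs) and 79 large barcodes (median 65499), and the 90% aliquot gave 1243 and 606 (medians 4680 and 47106). Of 10 markers of quiescence, 9 were at least 2-fold higher in small barcodes in each aliquot. Of all genes with at least 20 UMIs, 16.4% were so in the 10% aliquot and 19.5% in the 90% aliquot. The marker that fell short was Hey1 in the 10% aliquot and Cd34 in the 90% aliquot. The 10 markers had a summed level of 1302 against 125 CPM in the 10% aliquot, where CPM is a gene's UMIs per 1000000 UMIs of the class. The list of 10 activation markers holds 8 cell-cycle genes, which were at least 2-fold lower in small barcodes, but the rule for small barcodes already asked for 0 UMIs of cycling genes, so nothing is read from them. Of its other genes, Myog, a factor of myogenic differentiation, had a ratio of 0.0541 (0.00650 to 0.199) in the 10% aliquot on 2 UMIs in small barcodes, and 0.645 (0.559 to 0.741) in the 90% barcodes that are absent from the 10% table. Myod1, a myogenic factor of activated cells, was higher in small barcodes, at 1106 against 185 CPM in the 10% aliquot. The classes are therefore named by their rule and not as quiescent and activated cells. With 1 capture there are no replicates, so no test was run, and the 95% intervals given cover counting error only.

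The aliquots are not separate sets of barcodes. All 157 small and 79 large barcodes of the 10% aliquot are listed in the 90% table, where 144 and 76 of them fall in the same class with a median of 0.817 and 0.804 times as many UMIs. Over 60 such small barcodes, the expression of a barcode in the 10% table correlated at a median of 0.935 with the same barcode in the 90% table and at 0.704 with others, and 60 of 60 matched themselves best. Results are therefore given for the 10% aliquot and for the barcodes of the 90% table that are absent from the 10% table (1000 small, 399 large), called unshared below.

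The members were higher in small barcodes as a share of the transcriptome. Together they took 2945 CPM of small barcodes and 589 CPM of large barcodes in the 10% aliquot, a ratio of 4.999 (95% interval 4.76 to 5.25), and 4102 against 605 CPM in the unshared barcodes, a ratio of 6.78 (6.62 to 6.94). Of the 10 members, 8 were at least 2-fold higher in the 10% aliquot, where 16.4% of the 10076 genes with at least 20 UMIs were (31.3% were at least 2-fold lower). In the unshared barcodes 9 were, against 19.1% of genes (30.3% lower), and in the whole 90% aliquot 9 were, against 19.5%. The median log2 ratio of the members was 2.84 in the 10% aliquot and 2.99 in the unshared barcodes, beside −0.32 and −0.27 for all genes tested.

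In UMIs per barcode the sum lay the other way. Small barcodes held a mean of 20.9 UMIs of the members and large barcodes 38.0 in the 10% aliquot (ratio 0.550, 0.523 to 0.578), and 20.6 against 28.0 in the unshared barcodes (0.736, 0.720 to 0.754). On this scale the median log2 ratio of all genes was −3.51 and that of the members −0.35 in the 10% aliquot. Egr1 alone was at least 2-fold higher per small barcode in the 10% aliquot, as 1.37% of genes were. Egr1 and Btg2 were so in the unshared barcodes (2.26% of genes) and in the whole 90% aliquot (2.17%). The median large barcode of the 10% aliquot held 9.73 times as many UMIs as the median small one, and the higher CPM of the members is relative to that total. Less RNA per cell and fewer captured molecules per cell cannot be told apart.

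**Figure D1:**
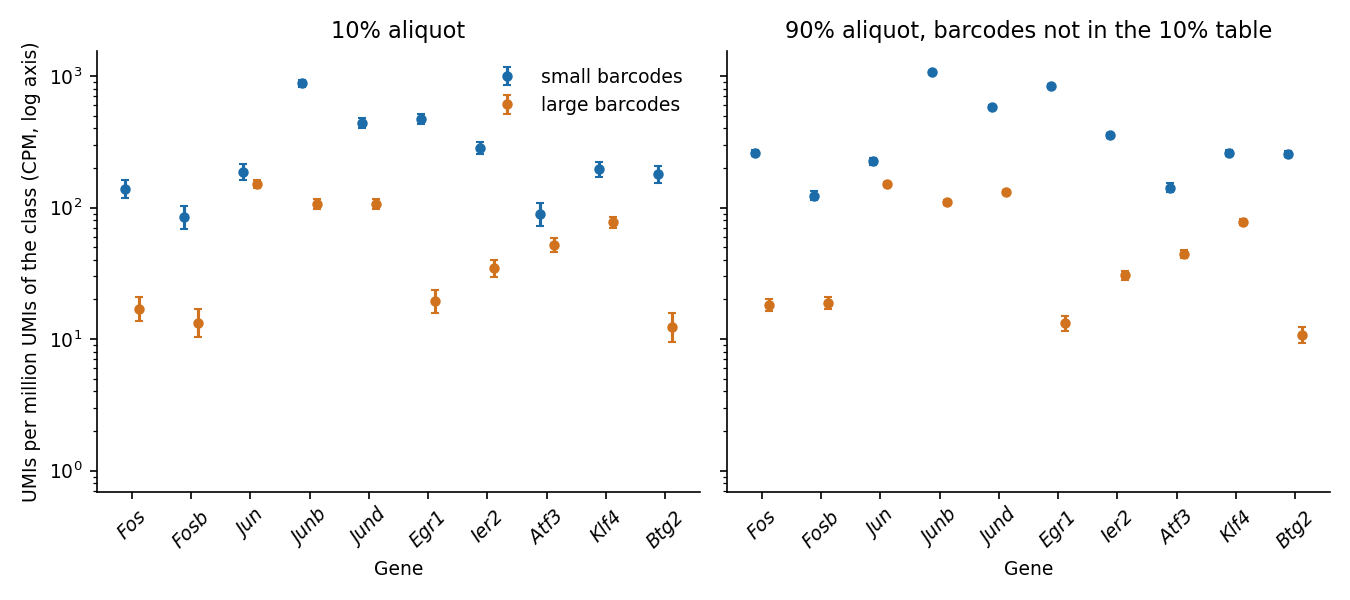
Level of each member in small (blue) and large (orange) barcodes, in CPM on a log axis, for the 10% aliquot (left) and the unshared barcodes of the 90% aliquot (right), with bars for 95% Poisson intervals. Jun lies closest between the classes (188 and 151 CPM in the 10% aliquot) and Egr1 farthest apart (473 and 19.4 CPM).

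UMIs of a 3′ protocol count molecules and were not divided by gene length. In small barcodes of the 10% aliquot the order from the highest level was Junb, Egr1, Jund, Ier2, Klf4, Jun, Btg2, Fos, Atf3 and Fosb, at 878, 473, 437, 284, 196, 188, 179, 138, 88.8 and 84.3 CPM. Neighbours whose intervals overlapped were Egr1 and Jund, the run from Klf4 through Jun and Btg2 to Fos, and Atf3 and Fosb. Unshared small barcodes kept Junb, Egr1, Jund and Ier2 as the first 4, without overlap. In large barcodes of the 10% aliquot the order was Jun (151 CPM), Jund, Junb, Klf4, Atf3, Ier2, Egr1, Fos, Fosb and Btg2 (12.4 CPM), and the intervals of Jund and Junb and of the last 4 neighbours overlapped. Jun thus ranked sixth among small and first among large barcodes.

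Egr1 (ENSMUSG00000038418) had the highest ratio of small to large barcodes on both scales. It had 527 UMIs in the small barcodes of the 10% aliquot and 99 in the large ones, or 473 and 19.4 CPM, a ratio of 24.4 (19.6 to 30.5). It stood at 836 and 13.2 CPM in the unshared barcodes, a ratio of 63.6 (55.9 to 72.7). Per barcode it averaged 3.36 UMIs in small and 1.25 in large barcodes of the 10% aliquot, and 4.21 against 0.609 in the unshared barcodes. After each barcode was thinned to 3000 UMIs, an Egr1 UMI was seen in 58.0% of small and 3.80% of large barcodes of the 10% aliquot, and in 71.5% and 3.01% of the unshared barcodes. The unthinned shares were 70.7% and 45.6% in the 10% aliquot, at median depths of 6729 and 65499 UMIs. Of the 99 UMIs in large barcodes, 39 lay in 1 barcode. The 76 large barcodes that were large in both tables held 60 of the 99 UMIs, or 11.9 CPM in place of 19.4, so this level rested in good part on the other 3. The 144 barcodes that were small in both tables gave 493 CPM in the 10% table and 535 in the 90% table.

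Btg2 (ENSMUSG00000020423, chr1:134075170-134079120, minus strand, GRCm38) came next. Its level was 179 CPM in small and 12.4 CPM in large barcodes of the 10% aliquot (ratio 14.5, 10.8 to 19.5), and 256 and 10.8 CPM in the unshared barcodes (23.6, 20.3 to 27.5). After thinning it was seen in 38.2% of small and 1.27% of large barcodes of the 10% aliquot. Its mean was 1.27 UMIs per small and 0.797 per large barcode, so Btg2 and Egr1 were the members with more UMIs in the smaller barcodes of both sets by an interval clear of equality.

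Fos (ENSMUSG00000021250, chr12:85473890-85477273, plus strand) stood at 138 and 17.1 CPM in the 10% aliquot, a ratio of 8.10 (6.19 to 10.7), and at 259 and 18.2 CPM in the unshared barcodes, a ratio of 14.2 (12.6 to 16.1). Fosb (ENSMUSG00000003545, chr7:19302696-19310051, minus strand) stood at 84.3 and 13.3 CPM (6.32, 4.58 to 8.77) and at 123 and 18.9 CPM (6.50, 5.69 to 7.43). Both were uncommon in single barcodes. After thinning, Fos was seen in 22.3% of small and 5.06% of large barcodes of the 10% aliquot and Fosb in 19.7% and 3.80%, which makes them with Atf3 the members found in the fewest small barcodes.

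Within the Jun family the members differed from each other. Junb (ENSMUSG00000052837, chr8:84974484-84978718, minus strand) was 878 and 106 CPM in the 10% aliquot (8.28, 7.45 to 9.21) and 1065 and 110 CPM in the unshared barcodes (9.71, 9.22 to 10.2). Jund (ENSMUSG00000071076, chr8:70698949-70700616, plus strand) was 437 and 106 CPM (4.10, 3.62 to 4.65) and 583 and 131 CPM (4.44, 4.21 to 4.69). Jun (ENSMUSG00000052684, chr4:95049034-95052222, minus strand) was 188 and 151 CPM (1.24, 1.06 to 1.45) and 224 and 151 CPM (1.48, 1.38 to 1.59). After thinning, a Jun UMI was seen in 31.2% of small and 29.1% of large barcodes of the 10% aliquot, a difference of 2.10 points (−10.6 to 13.8), and in 32.4% and 32.3% of the unshared barcodes (0.07 points, −5.45 to 5.38). Per barcode, Jun averaged 1.33 UMIs in small and 9.73 in large barcodes of the 10% aliquot. Exons of Junos, Prdx2 and Gm11175 overlap Jun, Junb and Jund on the other strand. The counting is not stated to use strand in the sources used here, so these pairs are uncertain.

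The composition of the Jun family therefore differed between the classes. Junb made up 58.4% (56.0 to 60.8) of Jun family UMIs in small and 29.2% (27.1 to 31.3) in large barcodes of the 10% aliquot, while Jun made up 12.5% and 41.5%. Jund held 29.1% and 29.3%. Junb held 56.9% and 28.0%, Jun 11.96% and 38.5%, and Jund 31.2% and 33.5% of the unshared barcodes' Jun family UMIs. Of the UMIs of the Fos family, counted with Fosl1 and Fosl2, Fos held 20.5% and 14.9% in the 10% aliquot and Fosb 12.5% and 11.6%, so that Fosl1, at 44.5% and 58.9%, held the most in both classes. Joint detection was counted after thinning as a UMI of Fos or Fosb and a UMI of the Jun family in the same barcode. It was seen in 31.2% (24.1 to 39.1) of small and 6.33% (2.09 to 14.2) of large barcodes of the 10% aliquot. In the unshared barcodes it was seen in 39.1% and 7.77%. Counted alone, Fos or Fosb was seen in 34.4% of small and 8.86% of large barcodes of the 10% aliquot. The Jun family was seen in 85.4% and 54.4%. In the unshared barcodes the shares were 40.5% and 11.03% for Fos or Fosb, and 91.1% and 61.7% for the Jun family. Whether the families met more often than these separate shares alone would give was not tested.

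Ier2, Klf4 and Atf3 followed in that order of ratio in both sets. Ier2 (ENSMUSG00000053560, chr8:84661331-84662852, minus strand) was 284 and 34.7 CPM in the 10% aliquot (8.17, 6.77 to 9.88) and 354 and 30.5 CPM in the unshared barcodes (11.6, 10.6 to 12.8). Klf4 (ENSMUSG00000003032, chr4:55527143-55532466, minus strand) was 196 and 77.1 CPM (2.54, 2.14 to 3.00) and 261 and 77.8 CPM (3.35, 3.11 to 3.61). Atf3 (ENSMUSG00000026628, chr1:191170296-191218039, minus strand) was 88.8 and 51.8 CPM (1.72, 1.35 to 2.17) and 142 and 44.2 CPM (3.21, 2.90 to 3.55), which put it below the 2-fold limit in the 10% aliquot and above it in the unshared barcodes. Atf3 was seen after thinning in 19.1% of small and 15.2% of large barcodes of the 10% aliquot, a difference of 3.92 points whose interval (−7.01 to 13.2) includes 0.

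**Figure D2:**
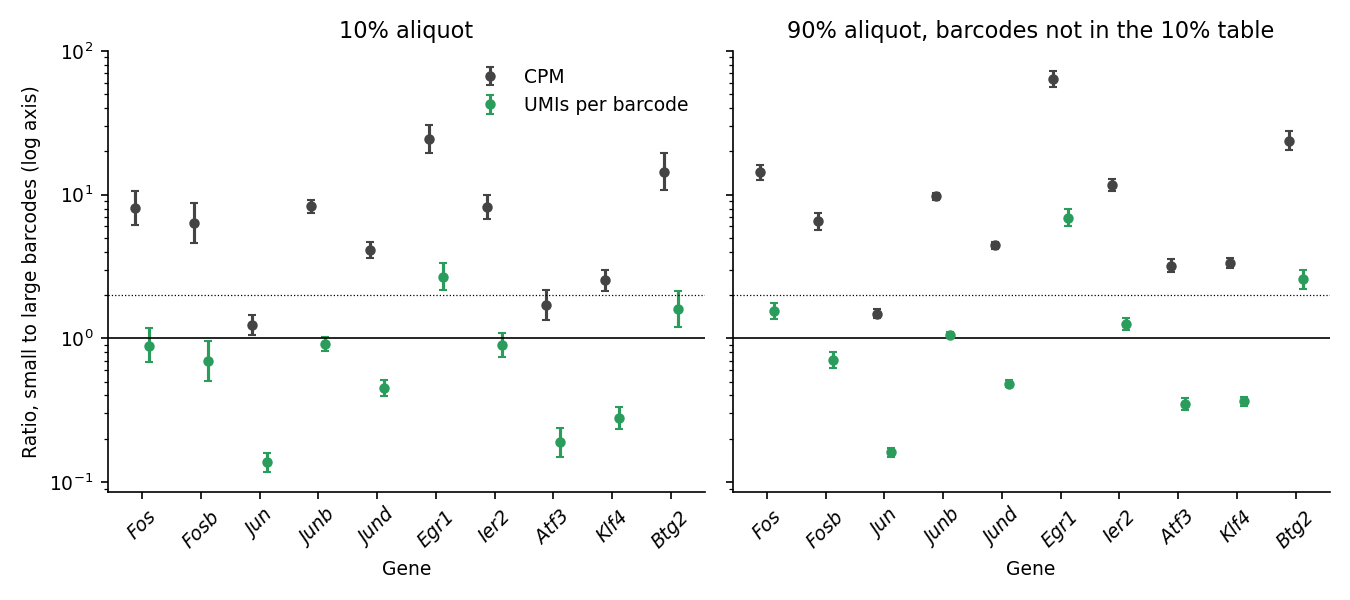
Ratio of small to large barcodes for each member on a log axis, in CPM (grey) and in UMIs per barcode (green), with 95% intervals, for the 10% aliquot and the unshared barcodes. The solid line marks equality and the dotted line 2-fold. In the 10% aliquot all 10 CPM ratios lie above equality, while in UMIs per barcode Egr1 (2.68) and Btg2 (1.59) do.

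Promoters of 8 members were found in RefSeq sequences on GRCm38.p6, from 250 bases before to 50 bases after the start. Egr1 and Ier2 had no entry. The letters TGACG on either strand, the core of the cyclic AMP response element bound by CREB and ATF factors, were present in 6 of the 8 (Atf3, Btg2, Fos, Fosb, Junb and Klf4), in 36 of 69 promoters of related genes and in 20.8% of all 32851 promoters. The full palindrome TGACGTCA, which holds TGACG on both strands, was in Btg2 alone and in 1.79% of all promoters. TGANTCA, the AP-1 site, was in 0 of 8 (7.81% of all), GCGTGGGCG, the Egr1 site, in 0 (0.612%), and the CArG box of serum response factor in 0 (1.63%), all searched on both strands. TATAAA was in Fos at −33 to −28 from the start, and in Junb at bases 1 to 6 after the start (13.6% of all). These are matches of letters in this window and say nothing of binding. The stretches with TGACG are shown because they are what 6 of the members share in sequence. Capitals mark TGACG, its complement CGTCA, or TATAAA before the start.
Btg2 (chr1:134079302-134079333, minus strand): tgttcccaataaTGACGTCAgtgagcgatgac
Atf3 (chr1:191183324-191183352, minus strand): ttaatagcattaCGTCAgcctgggattgg
Klf4 (chr4:55532691-55532719, minus strand): ctgcctggctggCGTCAcggcctggcccc
Fosb (chr7:19310089-19310117, minus strand): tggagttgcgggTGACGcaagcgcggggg
Junb (chr8:84978838-84978866, minus strand): gcttcctgacagTGACGcgagccgcctcc
Fos (chr12:85473749-85473874, plus strand): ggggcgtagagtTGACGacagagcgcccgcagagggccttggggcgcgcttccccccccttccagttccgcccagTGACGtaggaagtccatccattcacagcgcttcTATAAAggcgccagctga

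The summed members varied widely between barcodes of a class. Over the small barcodes of the 10% aliquot the lowest value was 0, the median 2588 and the highest 9211 CPM, and over the large barcodes 42.0, 479 and 3585 CPM. Of the 79 large barcodes, 1 lay above the small median, and 11 of 157 small barcodes lay below the large median. In the unshared barcodes the medians were 3536 and 458 CPM, with 1 of 399 large barcodes above the small median and 56 of 1000 small barcodes below the large median. The classes thus overlapped at their edges.

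Single members were concentrated in few barcodes. The 16 small barcodes of the 10% aliquot with the most UMIs of a gene held 58.4% of its UMIs for Fos, 63.8% for Fosb and 63.6% for Atf3, but 38.0% for Egr1, 40.2% for Jund and 40.4% for Junb. In the unshared barcodes, the 100 small barcodes with the most held 71.9% for Fos, 73.2% for Atf3 and 36.3% for Egr1. The highest sum was in an unshared barcode of 3290 UMIs, of which 323 were of the members (98176 CPM), with 104 of Fos, 65 of Junb, 46 of Atf3, 33 of Jun and 30 of Egr1. The next, of 6067 UMIs, held 111 of Jun and 52 of Egr1, and the one after, of 6130 UMIs, held 150 of Fos, 64 of Junb and 1 of Jun. The leading member thus differed among these 3 barcodes, and without them the summed ratio of the whole 90% aliquot was 6.49 in place of 6.70. Of the 1304 Fos UMIs of unshared small barcodes, these 3 held 104, 27 and 150. The unshared Fos level thus rests on them more than the summed level does.

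After thinning, a small barcode held UMIs of a median of 4 of the 10 members and a large barcode of 1. UMIs of at least 5 members were seen in 37.6% (29.99 to 45.7) of small barcodes of the 10% aliquot and in 0 of 79 large barcodes, which allows a share of up to 4.56%. The values were 49.7% (46.6 to 52.9) and 3.26% (1.75 to 5.51) in the unshared barcodes. No member was seen in 3.82% of small and 34.2% of large barcodes of the 10% aliquot.

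Over the whole range of depth the level was highest in the middle. In the 10% aliquot the summed members took 1248 CPM of barcodes under 500 UMIs, taken here as the background of free RNA, then 2518 CPM at 3000 to 5000 UMIs, 3145 CPM (3021 to 3273) at 5000 to 10000, 1991 CPM at 10000 to 15000, 712 CPM at 20000 to 40000 and 574 CPM (553 to 597) at 40000 and above. Unshared barcodes gave 1033 CPM under 500 UMIs, 4384 CPM (4305 to 4465) at 3000 to 5000 and 587 CPM at 40000 and above. Barcodes under 500 UMIs thus lay between the classes. The level in barcodes of the small depth that had a cycling UMI was lower than in small barcodes, 1508 CPM over 21 barcodes of the 10% aliquot and 2473 CPM over 116 unshared barcodes. Large barcodes with 0 cycling UMIs stood at 1236 CPM (9 barcodes) and 719 CPM (26 barcodes), above the 551 and 599 CPM of large barcodes with a cycling UMI.

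**Figure D3:**
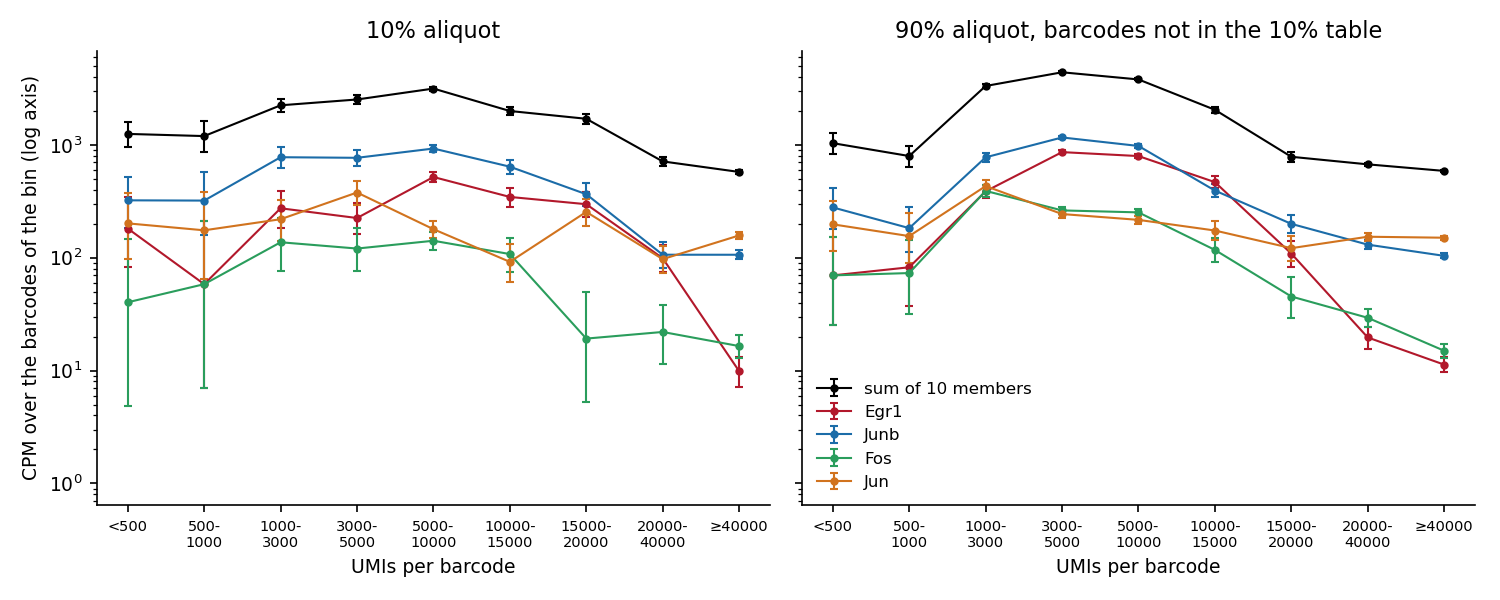
Level of the summed members (black) and of Egr1, Junb, Fos and Jun by the UMIs of the barcode, in CPM over the barcodes of a depth bin on a log axis, with 95% Poisson intervals, for the 10% aliquot (left) and the unshared barcodes (right). The sum is highest at 5000 to 10000 UMIs in the 10% aliquot (3145 CPM) and at 3000 to 5000 UMIs in the unshared barcodes (4384 CPM).

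Markers of other cell types were checked beside these values. UMIs of at least 3 markers of 1 list of immune, endothelial, fibroadipogenic, mural or glial cells were found in 3 small and 3 large barcodes of the 10% aliquot and in 14 and 4 of the whole 90% aliquot. In the 90% aliquot, 7 of 7 immune markers tested were at least 2-fold higher in small barcodes, with a summed 315 against 4.79 CPM. The corresponding values in the 10% aliquot were 337 and 106 CPM, with 3 of 7 higher and 3 lower. Fibroadipogenic markers were also higher in small barcodes of the 90% aliquot, 3 of 3 tested, at a summed 260 against 33.2 CPM, while in the 10% aliquot 1 of 3 was higher and 2 lower, at 159 against 62.6 CPM. Endothelial markers summed to 53.3 against 6.93 CPM in the 90% aliquot (2 of 4 higher) and 47.6 against 6.67 CPM in the 10% aliquot (1 of 2). Mural markers summed to 92.1 against 47.9 CPM and 85.2 against 78.4 CPM, and glial markers to 113 against 76.6 CPM and 156 against 56.3 CPM, in the same order of aliquots. The sums of all 5 lists were thus higher in small barcodes of both aliquots, as the members were. Without these barcodes the summed ratio of the members was 5.09 in the 10% aliquot and 6.69 in the 90% aliquot, and 8 and 9 members were at least 2-fold higher, as with them.

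Co-expression within small barcodes was weak. Over 157 small barcodes of the 10% aliquot thinned to 3000 UMIs, the median Spearman correlation of the 45 pairs of members was 0.0989, beside 0.0054 for all pairs of the 979 genes seen in a like share of barcodes, whose 95th percentile was 0.149. It was 0.107 over 1000 unshared barcodes, beside 0.0046 and a 95th percentile of 0.0760. Of the 45 pairs, 5 reached 0.2 in each set, as 1.35% of all pairs did in the 10% aliquot, 0.0583% in the unshared barcodes and 0.0473% in the whole 90% aliquot. All points share a library and a depth after thinning, and most counts are 0 or 1. The 5 pairs were Junb and Atf3 (0.26), Fosb and Jund (0.24), Fos and Fosb (0.21), Egr1 and Ier2 (0.21) and Jun and Jund (0.20) in the 10% aliquot. They were Junb and Egr1 (0.33), Egr1 and Ier2 (0.26), Junb and Btg2 (0.24), Egr1 and Btg2 (0.24) and Fosb and Jund (0.23) in the unshared barcodes. Egr1 with Ier2 and Fosb with Jund were the pairs found in both sets. Jun and Ier2 had the lowest value in both, −0.14 and −0.01.

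**Figure D4:**
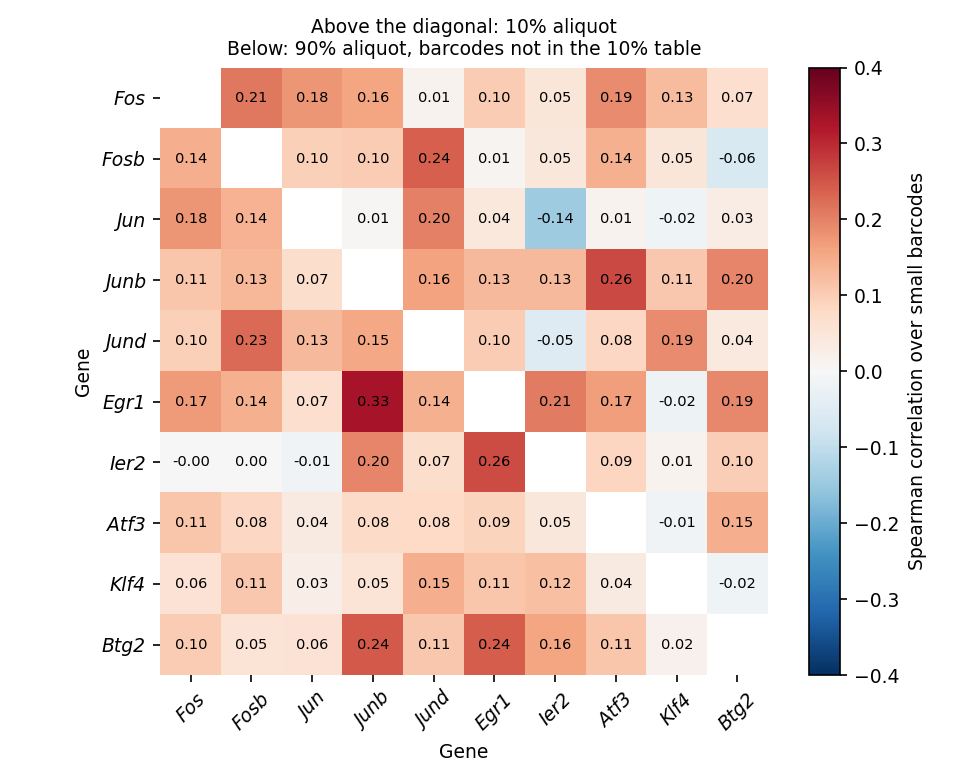
Spearman correlation of each pair of members over small barcodes thinned to 3000 UMIs, above the diagonal for the 10% aliquot (157 barcodes) and below it for the unshared barcodes (1000). Most cells lie between 0 and 0.2, and the highest is Junb with Egr1 in the unshared barcodes (0.33).

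The genes outside the members whose UMIs followed the summed members most closely over the 157 small barcodes of the 10% aliquot, among 1282 genes seen in at least 20% of them, were Nfkbia (0.35), Zfp36l1 (0.33), Ifrd1 (0.33), Dnajb1 (0.28), Pnrc1 (0.28), Hsp25-ps1 (0.26), Errfi1 (0.26) and Gm5850 (0.26). Nfkbia encodes an inhibitor of NF-κB, Zfp36l1 an mRNA-destabilising protein and Errfi1 an inhibitor of the EGF receptor. In the unshared barcodes Pnrc1 (0.31), Ifrd1 (0.28) and Nfkbia (0.27) had ranks 1, 2 and 3 of 1324 genes and Errfi1 (0.26) rank 6, while Zfp36l1 (0.19) and Dnajb1 (0.20) had ranks 24 and 21. Hsp25-ps1 had 0.08 there and Gm5850 was seen in under 20% of barcodes. Both are annotated as processed pseudogenes, so their reads may be shared and their values are uncertain.

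Genes related to the members by family or pathway were compared by lists. Of other bZIP genes, which include the Fos-like, Maf, Atf and Creb genes, 10 of 17 tested were at least 2-fold higher in CPM in small barcodes of the 10% aliquot and 0 lower, with a median log2 ratio of 1.26, beside −0.32 for all genes. Of other immediate-early genes, 29 of 37 were higher and 2 lower (median 2.34). Of upstream regulators, such as kinases of the MAPK pathway, serum response factor partners and NF-κB subunits, 5 of 19 were higher and 3 lower (0.39). Heat shock genes had 6 of 13 higher and 2 lower (0.61). Over all genes tested in the 10% aliquot, 16.4% were higher and 31.3% lower. In the unshared barcodes the counts higher and lower were 11 and 0 of 18, 32 and 1 of 41, 9 and 4 of 22, and 7 and 2 of 13, beside 19.1% and 30.3% of all genes tested. In UMIs per barcode few of the listed genes were at least 2-fold higher, 2, 6, 0 and 0 in the 10% aliquot, where 1.37% of all genes tested were. These counts thus also depend on the scale, and the lists were chosen with earlier results of these data known.

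The list of other bZIP genes leaves out the C/EBP factors Cebpb and Cebpd, also bZIP proteins, which were listed with the other immediate-early genes. Within that bZIP list, Creb5, Maff and Crem had the highest ratios, 29.3 (18.6 to 48.3), 23.1 (18.2 to 29.6) and 15.9 (11.2 to 23.0) in the 10% aliquot, and Atf4 (1.87) and Atf1 (1.62) the lowest. Creb5 did not keep its lead in the unshared barcodes, where the ratios were 13.5 for Creb5, 24.0 for Maff and 20.3 for Crem. Maff encodes a small Maf protein without a transactivation domain, and Crem a cAMP-responsive modulator. Cebpd, a C/EBP factor of the acute phase, led the other immediate-early genes at 1013 and 10.98 CPM, a ratio of 92.2 (70.5 to 123). Errfi1 stood at 31.3 (27.7 to 35.5) and Dusp1, a phosphatase of MAP kinases, at 22.0 (14.7 to 33.7). The unshared barcodes gave 160 for Cebpd, 36.3 for Errfi1 and 11.3 for Dusp1. Gadd45g (0.455) and Rhob (0.392) were below equality, and stood at 0.521 and 0.641 in the unshared barcodes. Among the upstream regulators, the NF-κB subunits Nfkb1 (6.63, 5.40 to 8.17) and Rela (5.201, 4.11 to 6.58) were highest, followed by Map2k1 (1.88), whereas Map2k2 (0.65) and Mapk3 (0.24, 0.09 to 0.55, on 6 UMIs in small barcodes) were lowest. Mapk3 was at 0.571 (0.441 to 0.730) in the unshared barcodes, above Map2k2 at 0.503, and Nfkb1 and Rela were at 7.95 and 6.15. Among the heat shock genes, Hspb1 (6.06), Dnajb1 (6.03) and Hsph1 (4.82) were highest, and the mitochondrial chaperonins Hspe1 (0.43) and Hspd1 (0.35) lowest. Their unshared ratios were 4.79, 3.92, 3.55, 0.437 and 0.334.

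Small barcodes were also divided by 3 other genes. With and without a Myod1 UMI the summed members were alike in size, 2852 CPM over 83 barcodes and 3051 CPM over 74 in the 10% aliquot, and 3940 and 4252 CPM in the unshared barcodes. Fos did not keep a direction, at 163 with and 109 without Myod1 in the 10% aliquot but 171 and 341 CPM in the unshared barcodes, while Atf3 was lower with Myod1 in both (62.3 against 119 CPM, and 106 against 175). The sum was higher in small barcodes with a UMI of Hspa1a, an inducible heat shock protein, at 4345 CPM over 33 barcodes against 2604 over 124 in the 10% aliquot and 6814 against 3661 CPM in the unshared barcodes. Large barcodes showed the same order (675 against 523 CPM, and 850 against 421 CPM). With a UMI of Cxcl2, a chemokine, it was 3231 against 2884 CPM and 4231 against 4071 CPM in small barcodes.

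Long reads gave the same direction for each member counted. In the same 157 small and 79 large barcodes of the 10% aliquot the summed members had 5672 and 1234 long-read CPM, a ratio of 4.60 (4.44 to 4.76), beside 4.999 in short reads. Egr1 stood at 1112 and 83.4 CPM (13.3, 11.9 to 14.9), below its short-read ratio of 24.4, and Btg2 at 386 and 29.0 CPM (13.3). Junb had 2725 and 419 CPM (6.51), Fos 438 and 54.0 CPM (8.10), Fosb 109 and 30.03 CPM (3.64) and Jund 105 and 30.7 CPM (3.42). Jun had 523 and 415 CPM (1.26), Atf3 187 and 135 CPM (1.39) and Klf4 89.0 and 39.3 CPM (2.26). No isoform of Ier2 is listed in the isoform counts.

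Isoforms of the other 9 members were compared as shares of the long-read UMIs of a gene. Only Klf4 had an isoform whose share differed by at least 20 percentage points between the classes, as did 17.3% of the 3265 genes with at least 50 UMIs in each class. Klf4 isoforms that end at chr4:55527143, the reference 3′ end, held 25.2% (17.8 to 33.8) of 123 UMIs in small and 47.3% (39.8 to 54.8) of 182 UMIs in large barcodes, and isoforms that end 785 bases earlier held 59.3% (50.1 to 68.1) and 36.8% (29.8 to 44.3). The counted isoform that reaches the reference end starts 464 bases inside the gene, so among counted isoforms the 5′ starts of Klf4 differed with its 3′ ends. The deposited annotation also holds the reference Klf4 ENSMUST00000107619.2, which runs from the reference start to the reference end. It had 194 supporting reads there, against 343 for the isoform that shares the counted isoform's name. The reference name is not listed in the isoform counts. The Klf4 shares therefore cover counted isoforms alone. Fos isoforms that end at chr12:85476667, 606 bases before the reference end, held 34.4% (30.6 to 38.3) of 605 UMIs in small and 18.8% (14.2 to 24.2) of 250 UMIs in large barcodes, a difference of 15.6 points (9.13 to 21.4). The reference Fos transcript ENSMUST00000021674.6 held 49.9% and 67.6%. Shorter ends of both genes thus took a larger share in small barcodes. A transcript cut short, a read primed inside the transcript and a shorter 3′ end cannot be told apart here.

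The largest shift of a single isoform was 16.1 points for Btg2 and 15.3 points for Egr1, and it was −18.0 points for Fosb and −17.7 points for Fos. Of Egr1, the leading isoform held 36.8% of 1537 UMIs in small and 21.5% of 386 in large barcodes, among 16 isoforms listed. A Fosb isoform that starts 3456 bases inside the gene held 25.2% (18.5 to 32.9) of 151 UMIs and 43.2% (34.8 to 51.8) of 139, whereas isoforms that start at chr7:19310046 held 43.7% and 25.2%. Btg2 isoforms that end at chr1:134075330 held 79.9% and 67.2%. A Btg2 isoform that ends 80478 bases beyond the reference end held 12.4% and 21.6%. In Jun, the leading isoform starts 20 bases inside the reference start, reaches the reference 3′ end and held 47.7% in each class. A Jun isoform that starts 386 bases before the reference start held 41.9% and 39.0%. A Junb isoform that starts 2351 bases before the reference start held 90.5% and 88.9%. These are shares of the counted isoforms only and are not shares of transcription starts. In the deposited annotation the Junb isoform of the same name had 3234 supporting reads, fewer than the 3411 UMIs counted under that name in small barcodes alone. Supporting reads and counted UMIs are therefore not on the same scale, and the match is by name only. The reference Junb ENSMUST00000064922.6 had 6168 supporting reads in the annotation, and the reference Jun ENSMUST00000107094.1 had 4251. Neither reference name is listed in the isoform counts. The main isoform held 80.0% and 79.6% in Jund and 84.9% and 81.4% in Atf3. The Jun, Junb, Jund and Atf3 shares differed by less than 4 points between the classes.

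**Figure D5:**
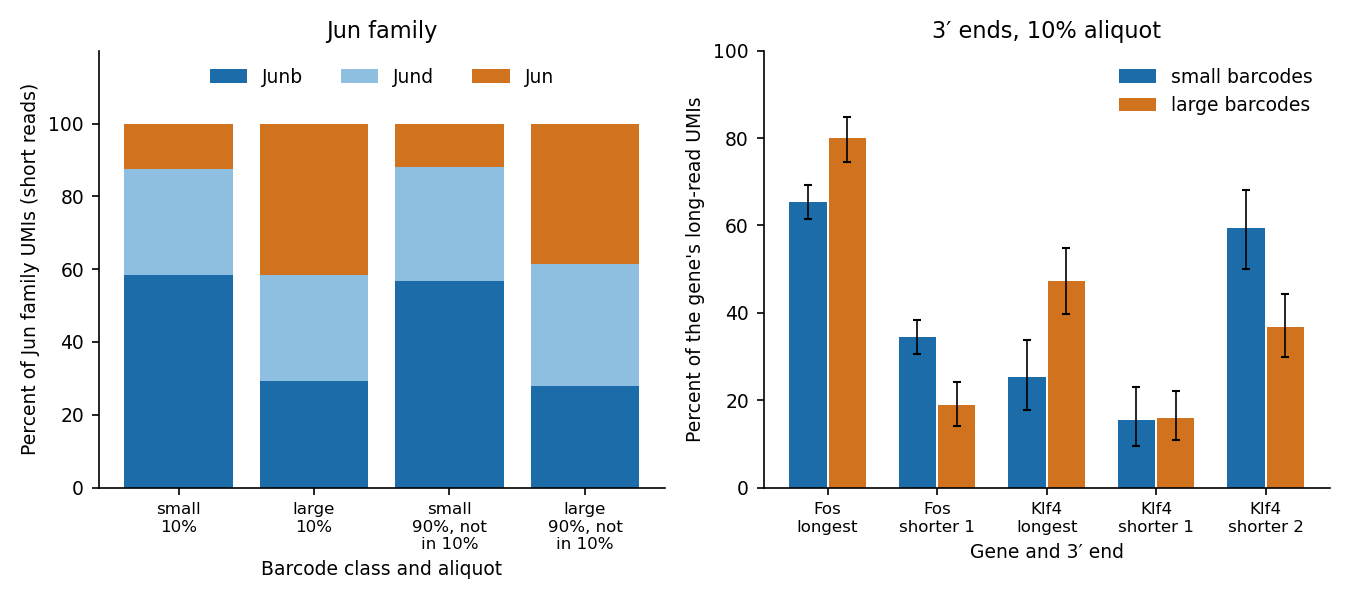
Left, percent of the Jun family's short-read UMIs held by Junb, Jund and Jun in each barcode class. Right, percent of the long-read UMIs of Fos and Klf4 by 3′ end, from the longest to shorter ends, in small (blue) and large (orange) barcodes of the 10% aliquot with 95% exact binomial intervals. Junb holds 58.4% in small and 29.2% in large barcodes of the 10% aliquot, and the shortest Klf4 end holds 59.3% and 36.8%.

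The deposited annotation, which pools all barcodes of the 10% aliquot and gives supporting reads per isoform, resolves a splice of Fosb. The final exon of Fosb holds an intron of 140 bases (chr7:19305007-19305146, minus strand) whose removal shifts the reading frame and gives the truncated protein ΔFosB, which lacks the C-terminal end of FosB. Of 325 supporting reads in isoforms that span it, 218 had it removed and 107 kept it, so the ΔFosB form made up 67.1% (61.7 to 72.2). The forms were not compared between the classes, because names in the isoform counts could not be matched reliably to those of the annotation. The GENCODE transcript sequences around this intron are shown because they carry the difference, with the kept bases in capitals in the first and, in the second, the stop codon TGA that the splice brings into frame.
Fosb, intron kept (chr7:19304992-19305161, minus strand): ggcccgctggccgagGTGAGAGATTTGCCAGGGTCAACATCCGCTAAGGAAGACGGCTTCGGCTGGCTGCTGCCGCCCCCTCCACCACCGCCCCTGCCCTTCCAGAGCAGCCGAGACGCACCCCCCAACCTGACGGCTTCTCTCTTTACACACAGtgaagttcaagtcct
Fosb, intron removed: ggcccgctggccgagTGAagttcaagtcct

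The 3 introns of Fos were kept in 12.5% (193 reads kept, 1345 spliced), 6.77% and 15.6% of the supporting reads that span them, in order from the 5′ end. The single intron of Btg2 was kept in 0 of 1590 such reads, the Egr1 intron at chr18:34861787-34862464 in 0 of 3116, and the introns of Klf4 in 0 to 3.88%. Reads that spliced across an intron at other sites were left out. The reference-named Egr1 transcript of the annotation has 3 exons, and its other intron was not assessed.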

How the data were processed

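Gene counts and isoform counts of UMIs per barcode were used as the authors deposited them, with no normalisation. Per the methods of the study, gene counts were made from Illumina reads with scPipe and isoform counts from nanopore reads with FLAMES, and the submitters' processing notes name Cell Ranger 1.3, minimap2 2.17 and GRCm38.p6. Both tables hold MuSCs of 1 capture without labels of origin, so no test was possible.

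The members and the lists of related genes and markers were chosen with earlier results of these data known. UMIs were summed per class of barcode (small, 3000 to 15000 UMIs and 0 UMIs of Rrm2, Top2a and Cdk1, and large, at least 20000 UMIs) and divided by the total of the class. Genes with at least 20 UMIs over both classes counted as tested, and a 2-fold ratio as higher or lower. Intervals at 95% were exact Poisson for CPM, exact binomial for ratios and shares, and Newcombe for differences of shares. They treat UMIs and barcodes as independent and cover counting error only. Shares of barcodes and Spearman correlations used barcodes thinned to 3000 UMIs with a fixed seed. The floor for a count of 0 was 3 counts. Isoform shares needed 50 long-read UMIs of a gene in each class, and a shift counted from 20 points. Scrublet marked 0 of 330 and 3 of 2420 barcodes of at least 1000 UMIs, so few that it may not have worked.

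Genes were named by rule: all members, in each related list the 3 highest and 2 lowest ratios of the 10% aliquot among genes with at least 100 UMIs, the 8 genes seen in at least 20% of small barcodes that followed the summed members most closely, and Myod1, Cxcl2 and Hspa1a. Isoforms were taken from those with at least 10% of a member's UMIs in either class, and not all of these are given. Fosl1 and Fosl2 were added to describe the Fos family. The calculations were tested on simulated data and run in Python 3.11.15 with numpy 2.4.6, pandas 2.3.3, scipy 1.17.1, scanpy 1.11.5 and matplotlib 3.10.9. Protein sequences were not used here.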

Additional observations from a re-analysis of the deposited data

How the results depend on the processing

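The scale decided the direction of the summed members. In UMIs per barcode the ratio of small to large barcodes was 0.550 in the 10% aliquot and 0.706 in the 90% aliquot, in place of 4.999 and 6.70 in CPM, and 1 and 2 members were at least 2-fold higher in place of 8 and 9. The other alternatives tried on the summed ratio kept its direction. Those that moved it past its counting interval were, in the 10% aliquot, no condition on cycling genes (4.70) and the mean of the CPM of single barcodes (4.69), and in the 90% aliquot, a small class of 5000 to 15000 UMIs (6.21), no condition on cycling genes (6.33), the mean of single barcodes (6.93), CPM without mitochondrial and ribosomal protein genes (6.95) and leaving out the 3 small barcodes of the highest sum (6.49). The number of members with an isoform shift of at least 20 points was 1 by the settings used. It was 2 (Fos and Klf4) over isoforms with at least 15 UMIs, where 15.6% of 2846 genes had such a shift. Over all isoforms the number of members was 5 with a limit of 10 points, which 53.5% of genes passed, and 0 with 30 points, which 5.64% passed. Over reference-named isoforms alone only 1 member, Fos, could be tested. Fos has 1 such isoform, so its shift was 0 by construction. Klf4 has no reference-named isoform in the counts, so this setting says nothing of its shift. The median correlation of member pairs stayed between 0.0866 and 0.148 under the alternatives tried. Of 62 values under alternatives, 47 stayed within the limits set, 13 moved and 2 changed direction. The alternatives on scale, other cell types, the 3 highest barcodes and other thinning draws, and the correlation of member pairs without barcodes in both aliquots (0.107), were chosen after seeing the data. Leaving out barcodes present in both aliquots could not be run for the 10% aliquot, where it leaves 0 barcodes in each class. Depth limits the members of low count, such as Fosb, with 94 and 68 UMIs in the classes of the 10% aliquot. No paired analysis was possible because each aliquot is 1 sample, so the groups share only 1 replicate number, and no result comes from a test between them.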
